A study of Mus musculus with 10 samples.

Results

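A set of 10 Sox genes of the neural lineage was followed in sorted spinal cord cells of e10.5 mouse embryos. They were chosen by name, as the members of 5 classes of Sox transcription factors used by the nervous system: Sox1, Sox2 and Sox3 (class SoxB1), Sox21 (SoxB2), Sox4, Sox11 and Sox12 (SoxC), Sox5 (SoxD), and Sox9 and Sox10 (SoxE). All 10 were among the 48964 genes counted, and 9 were among the 17830 genes with enough counts to be tested. Sox10 was not.

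RNA-seq was carried out on YFP-positive cells collected by FACS from dissociated spinal cords, in 5 control and 5 cdKO (conditional double knockout) samples. Every embryo carried Olig2-Cre+/- and the Rosa26R-YFP+/- reporter, which turns yellow fluorescent once Cre has acted. Control cells had the Oc1+/Flox and Oc2+/Flox alleles, so that Cre could remove 1 copy of each of the Onecut transcription factor genes Oc1 and Oc2 there too. The cdKO cells had the Oc1-/Flox and Oc2-/Flox alleles, so that Cre could remove the last copy. Olig2-Cre acts in motor neuron progenitors, and the study found YFP in V3 interneurons as well, so the sorted cells are not only motor neurons. Neither the labels nor the methods state whether a sample is 1 embryo or a pool, and p-values therefore measure only the spread between these samples.

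Sox proteins bind DNA through an HMG box. SoxB1 factors keep neural cells in the progenitor state, and Sox21 counteracts them and promotes exit from it. SoxC factors are switched on as progenitors become neurons and activate neuronal genes, Sox5 modulates cell cycle exit and the action of other Sox factors, Sox9 acts in neural progenitors and prepares them for gliogenesis, and Sox10 marks neural crest cells and, later, oligodendrocytes.

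Total counts ranged from 63932395 to 107709534 in control and from 72315782 to 84249157 in cdKO samples. Values are given as CPM, a gene's counts relative to the library size after TMM scaling, which evens out differences in RNA composition between samples. The TMM factor was 0.7175 in cdKO 5 and 0.9465 to 1.166 in the other samples, so scaling raised the CPM of cdKO 5. The first exon of Oc1 (chr9:74861921-74863401, GRCm38) held 63 to 210 counts in each control sample and fewer in the cdKO samples, with 0, 17, 0, 3 and 0 counts in samples 1 to 5. The sample cdKO 5 stood apart: across 6196 genes the median share of counts lying 5′ of the midpoint of the gene's exons was 36.158%, against 50.426% in control 5 and 53.867 to 55.465% in the other 8 samples. Fold changes of the 9 tested Sox genes are therefore given with and without it. Those of other genes and the medians of gene lists include it unless stated. Marker genes of several cell states were present together. The neuronal gene Tubb3 was at 634 ± 374 CPM in control and 842 ± 445 CPM in cdKO samples, the proliferation gene Top2a at 250 ± 97.8 and 216 ± 96.7, the motor neuron genes Mnx1 and Isl1 at 55.6 ± 16.6 and 225 ± 80.6 in control samples, and the progenitor gene Hes5 at 1150 ± 498 in control samples (SD, n = 5). These 5 genes were picked for description. The labels call the cells spinal motor neurons. In such a bulk measurement, fewer cells of a type and less RNA per cell cannot be told apart.

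None of the 10 Sox genes separated control from cdKO cells. The groups overlapped for each of them, and 0 of the 9 tested genes passed a threshold of 0.05 on p-values of edgeR's quasi-likelihood test after Benjamini-Hochberg adjustment (lowest adjusted p = 0.967), nor did any reach an unadjusted p under 0.05. Over all genes tested, 0.0% passed the adjusted threshold and 0.404% had groups that did not overlap. An unadjusted p under 0.05 was found for 4.99% of all genes, 4.17% with higher and 0.824% with lower values in cdKO samples. The median log2 fold change (cdKO over control) was -0.04 for the Sox genes and -0.02 for all genes, and the median size of the change was 0.13 and 0.29. A p that misses the threshold does not show equal levels, and the 95% confidence intervals given below show which changes remain possible.

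The Sox genes differed far more from each other than between groups. Divided by exon length, Sox4 had the highest level (33.1 CPM per kb over the 10 samples), followed by Sox9 (29.2), Sox2 (20.7), Sox11 (15.6) and Sox21 (5.97). Sox12 (1.59), Sox3 (1.37), Sox1 (0.635) and Sox5 (0.522) were lower, and Sox10 was at 0.046 CPM per kb. The progenitor gene Sox2 and the neuronal genes Sox4 and Sox11 were thus among the higher Sox transcripts in the same samples. Sox4 exceeded 87.9% of tested genes in level per kb, Sox2 82.7% and Sox5 25.4%. Not all neighbours in this order were separated. Sox4 was above Sox9 in 6 of 10 samples, Sox12 above Sox3 in 6 and Sox1 above Sox5 in 4, whereas Sox9 was above Sox2 in 9, Sox2 above Sox11 in 9, Sox11 above Sox21 in 9, Sox3 above Sox1 in 9, and Sox21 above Sox12 and Sox5 above Sox10 in all 10. The order depends in part on summing bins. By the highest bin per kb, Sox4 was above Sox9 except in control 4 (196 against 199). Sox5 was then above Sox1 except in control 5 (4.02 against 7.92) and cdKO 5 (7.05 against 7.45). The length used for Sox5 is 14376 bases, of which 5893 lie in bins with at least 100 counts.

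**Figure D1:**
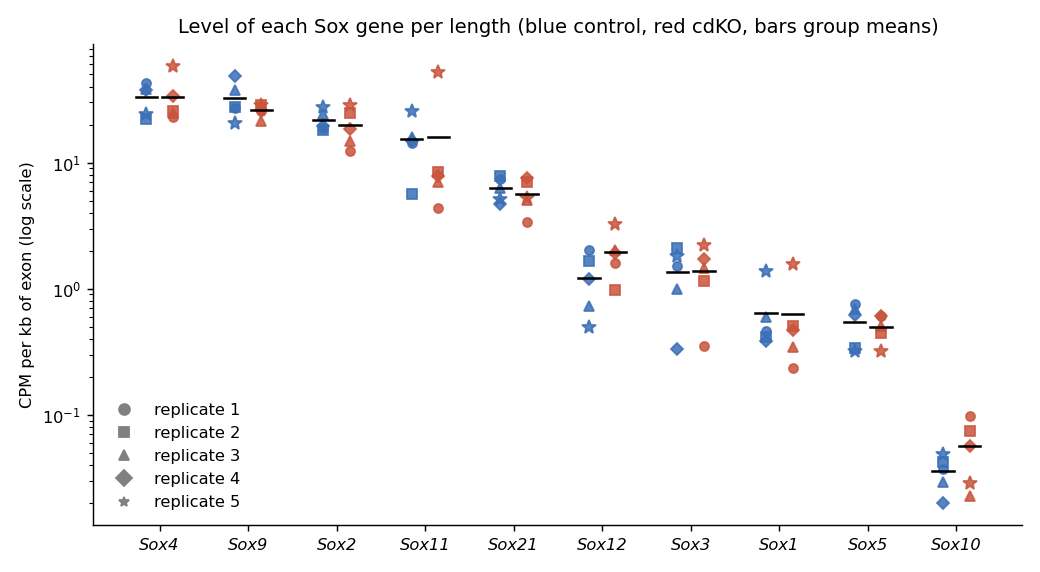
Level of each Sox gene in CPM per kb of exon (vertical log axis), ordered by the mean over all samples, with 1 symbol per replicate number, control in blue, cdKO in red and group means as bars. Levels fall from 33.1 CPM per kb for Sox4 to 0.046 for Sox10, and the groups overlap for each gene.

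A pair of short windows is shown from the promoters that could be read for these genes. RefSeq promoters (GRCm38.p6, 250 bases before to 50 after a start) were found for 7 of the 10 genes: Sox1, Sox2, Sox21, Sox4, Sox11, Sox12 and Sox5. Only the 250 bases before the start were searched, on both strands, in these and in all promoters. The letters were ACAAAG and AACAAT, short forms of the Sox recognition sequence, and ATCAAT and ATCGAT, short forms of the Onecut recognition sequence. Only ACAAAG was found, in 1 of the 7 (Sox2), and it occurs in 16.5% of all 32851 promoters. AACAAT occurs in 9.42%, ATCAAT in 6.72% and ATCGAT in 0.728% of all promoters, each in 0 of the 7. The first window holds the ACAAAG match (capitals), 206 to 201 bases before the RefSeq start of Sox2. That start lies upstream of the counted Sox2 exon, which begins at 34650405, so no counted base adjoins it. The second window lies directly before a RefSeq start of Sox5 inside the gene (143828425-144781977). The exon adjoining this Sox5 start had no counts (below).
Sox2 (chr3:34649777-34649806, plus strand): ggggggggggatACAAAGgttccccagcgg
Sox5 (chr6:143947107-143947136, minus strand): gactaagtgacttaggcaacaggaatggtt
A match of letters is not a binding site, and no match says only that these letters are not in this window. The 250 bases before the start held 39.6% G and C for Sox5, the lowest of the 7, and 74.4% for Sox12, the highest, against a median of 52.4% over all promoters. CG dinucleotides numbered 3 in this Sox5 promoter, which lies inside the gene, and 35 in that of Sox12, with a median of 6 over all promoters.

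Among the SoxB1 genes, which maintain progenitors, Sox2 (chr3:34650405-34652461, a single exon) gave 87.9 to 96.4% of the class's summed CPM per kb in every sample. Sox2 was at 38.4, 37.3, 50.1, 40.1 and 56.6 CPM in control samples 1 to 5 and at 25.3, 51.3, 30.7, 38 and 58.5 CPM in cdKO samples 1 to 5. In these TMM-scaled values the highest control and the highest cdKO sample both carried the number 5. The cdKO values lay on both sides of the control values. With library size only, cdKO 2 (53.6 CPM) was above cdKO 5 (42.0 CPM), while control 5 stayed the highest control sample (56.4 CPM). The TMM-scaled mean was 44.5 ± 8.43 CPM in control and 40.8 ± 13.9 CPM in cdKO samples, giving a log2 fold change of -0.13 ± 0.29 (SE, 95% interval -0.75 to 0.50), with an adjusted p of 0.997 (quasi-likelihood test of edgeR, Benjamini-Hochberg adjustment). Without cdKO 5 the log2 fold change was -0.29 ± 0.25. The exact two-sided permutation test of log2(CPM + 0.5), in which 5 against 5 samples cannot give a p below 0.00794, gave p = 0.524. Fold changes from 0.594 to 1.41 lie inside the interval.

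Sox1 (chr8:12395295-12400126), which shares the SoxB1 role, was at 2.22, 1.99, 2.87, 1.86 and 6.61 CPM in control samples and at 1.14, 2.44, 1.67, 2.27 and 7.61 CPM in cdKO samples 1 to 5. In both groups the sample numbered 5 lay far above the other 4. The group means were 3.11 ± 2.00 and 3.03 ± 2.61 CPM, with a log2 fold change of -0.04 ± 0.54 (95% interval -1.21 to 1.13, edgeR adjusted p = 0.999). Without cdKO 5 the log2 fold change was -0.71 and without control 5 it was 0.43, so the direction depended on which of these samples entered. The first 1108 bases of the Sox1 exon, with 58 counts in all, were nearly empty beside the last 3638 bases with 2212. Sox3 (chrX:60891366-60893430), the remaining SoxB1 gene, was at 3.14, 4.32, 2.06, 0.692 and 3.79 CPM in control and at 0.724, 2.37, 3.01, 3.55 and 4.61 CPM in cdKO samples. One sample in each group, control 4 and cdKO 1, was below 1 CPM. The log2 fold change of Sox3 was 0.03 ± 0.53 (95% interval -1.11 to 1.16, edgeR adjusted p = 0.999), with -0.21 ± 0.53 without cdKO 5, and the highest and lowest samples differed 6.67-fold.

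Sox21 (chr14:118233232-118237030), the SoxB2 gene that opposes SoxB1 activity, was at 28.2, 29.9, 24.0, 17.9 and 19.7 CPM in control and at 12.8, 26.8, 19.1, 28.5 and 19.8 CPM in cdKO samples. The samples numbered 5 were not high here, and the values of both groups interleaved. The log2 fold change was -0.16 ± 0.29 (95% interval -0.79 to 0.47, edgeR adjusted p = 0.997) and -0.14 ± 0.29 without cdKO 5, and Sox21 varied least of the 10 genes, with a coefficient of variation of 24.9% over all samples. A pair of adjoining bins of the antisense transcript Gm4675, of 648 and 65 bases, lie within the 5′ part of the Sox21 exon, where reads of the 2 genes cannot be told apart, since counting did not separate the strands. The longer bin held 8.07% of Sox21 counts in cdKO 5, 12.1% in control 5 and 13.1 to 25.8% in the other samples, and the shorter bin 4.18 to 10.4% over all samples. Reads crossing from one bin to the other are counted in both.

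The SoxC genes act in newborn neurons. Sox4 (chr13:28948919-28953713) was at 205, 106, 184, 181 and 117 CPM in control samples and at 110, 123, 119, 161 and 280 CPM in cdKO samples 1 to 5. Of the 5 cdKO samples, 4 lay within the control range and cdKO 5 lay above it. With library size only, cdKO 5 (201 CPM) was below control 1 (219 CPM). Both TMM-scaled means were 159 CPM (SD 44.0 in control and 70.6 in cdKO), with a 95% interval of the log2 fold change from -0.70 to 0.70 (edgeR adjusted p = 1.0, exact permutation p = 0.857). Without cdKO 5 the log2 fold change of Sox4 was -0.31.

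The high Sox4 value of cdKO 5 came from 1 stretch of the gene. A 2616-base exon annotated to the antisense transcript Gm26735 (chr13:28949056-28951671) lies within the 3′ part of the single Sox4 exon. It held 87.3% of all Sox4 counts in cdKO 5, 39.4% in control 5 and 13.6 to 20.2% in the other 8 samples. Gm26735 had no counts in any sample on its other exon bin, which is only 33 bases long. The stretch itself was at 244 CPM in cdKO 5, against 14.9 to 31.2 CPM in the other cdKO and 16.5 to 46.1 CPM in control samples. Counting did not separate the strands, so reads of Sox4 and Gm26735 cannot be told apart there. On the rest of the exon, cdKO 5 was the lowest of all samples at 35.6 CPM, and control 5 the next lowest at 71.0 CPM. The rest of the exon was at 126 ± 43.1 CPM in control and 91.2 ± 34.2 CPM in cdKO samples (exact permutation p = 0.262).

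Sox11 (chr12:27334264-27342574), a single exon of 8311 bases, showed the widest spread of the 10 genes, with a 12-fold difference between its highest and lowest sample. It was at 120, 46.7, 133, 123 and 211 CPM in control samples and at 36, 70.3, 58.7, 64.8 and 434 CPM in cdKO samples 1 to 5. Except for cdKO 5, the cdKO samples lay at or below 70.3 CPM and 4 control samples at or above 120 CPM, while cdKO 5 was the highest of all 10 and control 2 was above cdKO 1 only. The group means, 127 ± 58.4 and 133 ± 169 CPM, were alike with cdKO 5 included, and the log2 fold change was 0.07 ± 0.62 (95% interval -1.28 to 1.41, edgeR adjusted p = 0.999, exact permutation p = 0.563). Without cdKO 5 it was -1.13 ± 0.37, which is 0.457-fold, with an unadjusted edgeR p of 0.00996 and an adjusted p of 1.0. In that fit 2.34% of 18125 genes had an unadjusted p under 0.05. With control 5 left out as well it was -0.89 ± 0.33, with an unadjusted edgeR p of 0.0227 and an adjusted p of 1.0. Leaving out both samples numbered 5 was chosen after seeing the data, and no Sox gene passed the adjusted threshold in any fit.

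Sox12 (chr2:152393611-152398063), the SoxC gene of lowest level, was at 8.94, 7.45, 3.27, 5.36 and 2.22 CPM in control and at 7.18, 4.36, 9.03, 8.52 and 14.6 CPM in cdKO samples. The samples cdKO 3 and cdKO 5 exceeded the highest control sample, and the other cdKO samples lay within the control range. The means were 5.44 ± 2.80 and 8.73 ± 3.74 CPM, and the log2 fold change of 0.68 ± 0.43 was the largest among the Sox genes tested on all samples (95% interval -0.24 to 1.6, edgeR adjusted p = 0.967, exact permutation p = 0.175). It was 0.41 without cdKO 5, where the changes of Sox11 and Sox1 were larger, and 0.93 without control 1. Without both samples numbered 5 it was 0.21.

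**Figure D2:**
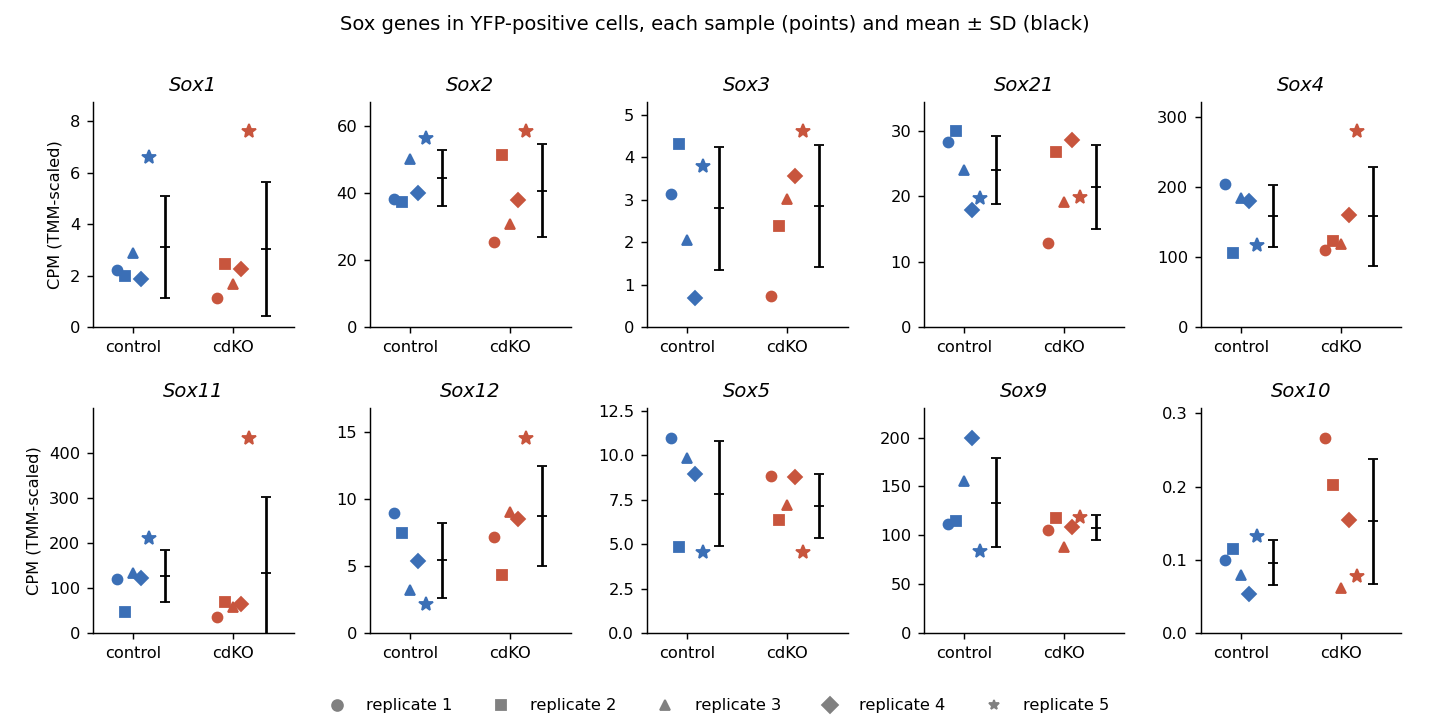
TMM-scaled CPM of each of the 10 Sox genes in control (blue) and cdKO (red) samples, with 1 symbol per replicate number and the mean ± SD in black (n = 5; SD bars are clipped at 0). Replicate 5, shown as a star, is the highest sample of both groups for Sox1, Sox2 and Sox11 on this scaling, and the groups overlap in each panel.

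Sox5 (chr6:143828425-144781977, 25 exons after merging) is a SoxD gene with several promoters. It was at 11, 4.84, 9.84, 8.96 and 4.58 CPM in control and at 8.82, 6.38, 7.22, 8.79 and 4.57 CPM in cdKO samples. The sample numbered 5 was the lowest in both groups, and the cdKO values lay almost wholly inside the control range. The log2 fold change was -0.13 ± 0.34 (95% interval -0.87 to 0.61, edgeR adjusted p = 0.998), and -0.01 ± 0.32 without cdKO 5. Of the 46 counted bins of Sox5, 10 had 0 counts in all samples, and 21 bins with at least 100 counts covered 5893 of its 14376 exon bases. The 4 bins from 143947016 to 143947106, next to the window printed above, were among those without counts, so transcripts from that start were not detectable at this depth, at which the floor of 3 counts corresponds to 0.0288 to 0.0591 CPM.

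Sox9 (chr11:112782224-112787760, 3 exons), the SoxE gene of progenitors and future glia, was at 112, 115, 156, 200 and 84.4 CPM in control and at 106, 118, 88.4, 109 and 119 CPM in cdKO samples. The control values spanned those of cdKO wholly, and 2 control samples, 3 and 4, were above every cdKO sample. The means were 134 ± 45.2 and 108 ± 12.2 CPM, with a log2 fold change of -0.31 ± 0.28 (95% interval -0.90 to 0.29, edgeR adjusted p = 0.997, exact permutation p = 0.317), and without cdKO 5 it was -0.35 ± 0.26. By exon, exon 1 was at 32.8 ± 11.4 CPM in control and 20.8 ± 11.6 CPM in cdKO samples (exact permutation p = 0.19), and exon 3 at 76.5 ± 26.3 and 71.8 ± 25.7 CPM (exact permutation p = 0.794). The cdKO mean of exon 1 includes cdKO 5, where that exon held 50 counts, against 1672 to 2455 in the other cdKO samples.

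Sox10 (chr15:79154908-79165240), the SoxE gene of neural crest and oligodendrocytes, was represented by a sum over its 4 bins of 10, 12, 7, 4 and 9 counts in control samples 1 to 5 and of 21, 17, 5, 13 and 4 counts in cdKO samples 1 to 5. These were above the 3 counts set as the floor of detection but too few for the filter. The levels were 0.0965 ± 0.0307 and 0.153 ± 0.0855 CPM (exact permutation p = 0.23). In the 8 alternative fits that kept Sox10 its log2 fold change was 0.51 to 0.86 (lowest adjusted p = 0.832). Other genes of neural crest and Schwann cell precursors were near 0 too: Cdh19 had no counts in any sample, Foxd3 was at 0.217 CPM or less and Erbb3 at 0.394 CPM or less.

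**Figure D3:**
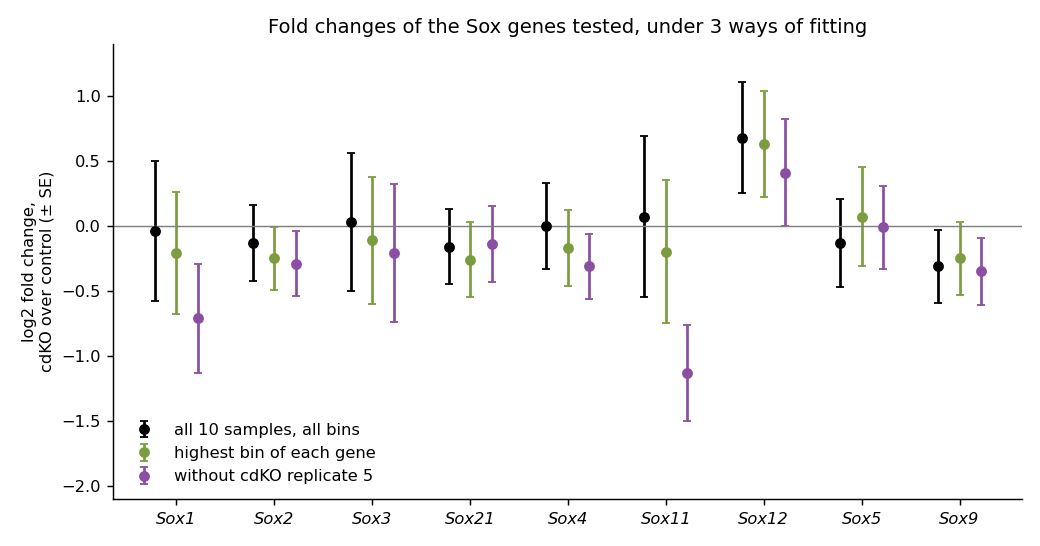
Log2 fold change of cdKO over control (± SE) of the 9 tested Sox genes from edgeR, with all samples and bins (black), with the bin of highest count of each gene (green) and without cdKO 5 (purple). Sox11 moves from 0.07 to -1.13 and Sox1 from -0.04 to -0.71 when cdKO 5 is left out. Sox1, Sox2, Sox4, Sox21 and Sox9 are below 0 in all plotted fits, and Sox12 is above 0. With all samples and bins, Sox4 is at -0.00065.

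Where counts fell along a Sox gene differed in cdKO 5 for several members. In Sox9, exon 1 held 50 counts and exon 3 held 5922 in cdKO 5, whereas exon 1 held 1132 to 3475 in the other samples. Per base, the ratio of exon 1 to exon 3 was 0.0329 in cdKO 5, 1.17 in control 5 and 1.51 to 2.00 in the other 8 samples. For Sox12 the ratio of its largest 5′ bin to its largest 3′ bin was 0.0502, 0.166 and 0.887 to 1.23 in the same order. The pattern was the same in Sox5, where the middle exons held 3 counts and the last coding exons 161 in cdKO 5, a per-base ratio of 0.0115, against 0.478 in control 5 and 0.448 to 1.21 in the others. In these genes the counts of cdKO 5 thus lay mostly at the 3′ end, and the part of this in their total CPM was not tested.

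**Figure D4:**
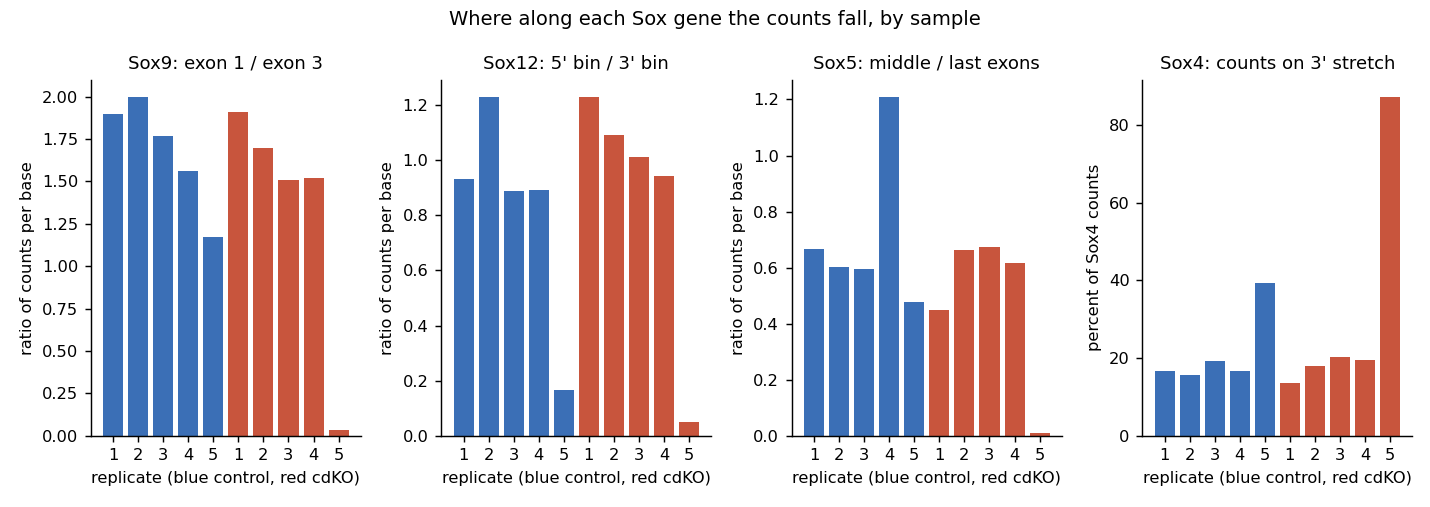
Ratio of counts per base between the 5′ and 3′ parts of Sox9, Sox12 and Sox5, and percent of Sox4 counts on the 3′ stretch shared with Gm26735, with 1 bar per sample (blue control, red cdKO). In cdKO 5 the ratios are 0.0329, 0.0502 and 0.0115, and the Sox4 share is 87.3%.

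The balance of the neuronal SoxC class to the progenitor SoxB1 class varied more between samples than between groups. The summed CPM per kb of Sox4, Sox11 and Sox12 was 2.86, 1.42, 2.12, 2.65 and 1.64 times that of Sox1, Sox2 and Sox3 in control samples 1 to 5. In cdKO samples 1 to 5 it was 2.24, 1.32, 2.03, 2.10 and 3.53 times. The SoxC sum exceeded the SoxB1 sum in each sample. On the log2 scale the ratio was 1.05 ± 0.43 in control and 1.09 ± 0.50 in cdKO samples, and this difference of 0.05 was smaller than the pooled SD of 0.47. Without cdKO 5 the difference was -0.14. No test was made of this ratio, since its members were chosen.

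**Figure D5:**
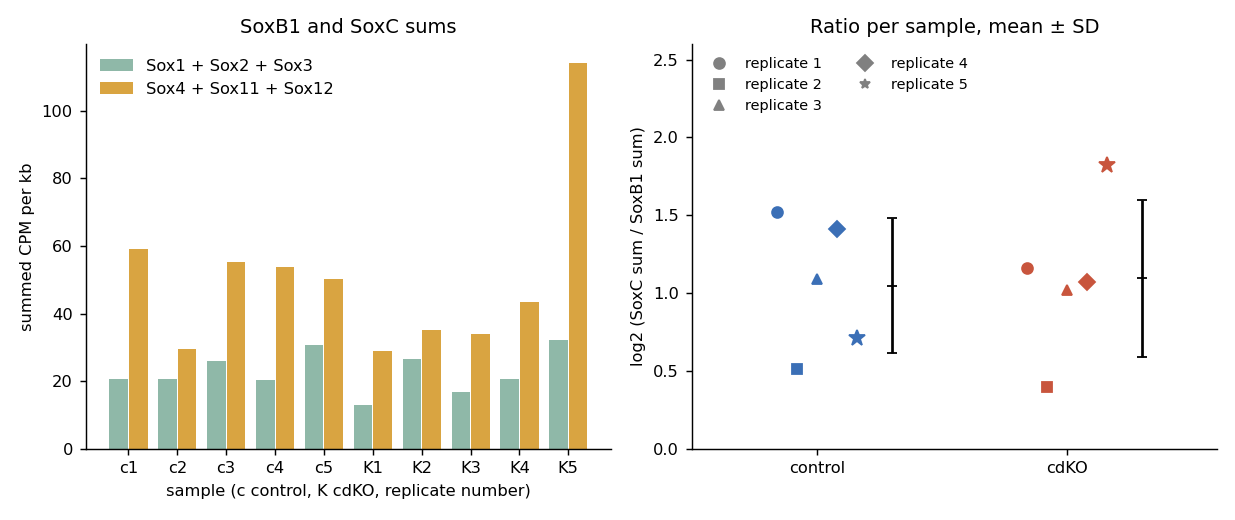
Left, summed CPM per kb of the SoxB1 and SoxC genes in each sample; right, log2 ratio of the sums by group, with mean ± SD (n = 5). The ratio is 1.05 ± 0.43 in control and 1.09 ± 0.50 in cdKO samples, and cdKO 5 has the highest SoxC sum.

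Within SoxC, Sox4 was ahead of Sox11 per kb in 9 of 10 samples. The ratio was 0.961 in control 5, 1.12 in cdKO 5 and 2.41 to 5.29 in the other 8 samples, so both samples with less 5′ coverage also had the lowest ratios. The summed CPM of 18 genes of postmitotic neurons was 7010, 4910, 3430, 4020 and 1750 in control and 7030, 2670, 5670, 4600 and 8550 in cdKO samples. In TMM-scaled CPM, control 5 thus had the lowest and cdKO 5 the highest neuronal sum, although Sox11 was the highest of its group in both.

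Some Sox genes varied together across the 10 samples after the group means were subtracted. Of 45 pairs, 2 passed a Benjamini-Hochberg threshold of 0.05 on permutation p-values of Pearson's r (100000 permutations). Sox1 and Sox2, both SoxB1, had r = 0.87 (permutation p = 6e-05, adjusted 0.0027) and Spearman's rho = 0.89 (permutation p = 0.00113, adjusted 0.0508). Their r was 0.91 without the 2 samples farthest from the median of Sox1 and 0.81 without cdKO 5. Sox1 and Sox11 had r = 0.90 (permutation p = 0.00073, adjusted 0.0164) and rho = 0.73 (permutation p = 0.0193, adjusted 0.289), and their r was 0.62 without the 2 farthest samples and 0.75 without cdKO 5. The second pair therefore rested in part on the samples numbered 5. With library size alone in place of TMM, r was 0.72 and 0.87 and 0 of the 45 pairs passed.

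The genes whose levels followed those of a Sox gene most closely, among 10170 genes at 5 CPM or more on average, are given by Pearson's r over the same 10 samples with group means subtracted. They were Rbmx2 (0.995), Ccdc59 (0.987) and Tex30 (0.986) for Sox1, and Invs (0.949), Utp14a (0.949) and Gm43126 (0.948) for Sox2. For Sox11 they were Rtn4 (0.987), March6 (0.985) and Mex3b (0.983), and for Sox4 Srpk2 (0.935), Tulp4 (0.934) and Dync1i2 (0.927). Those of Sox9 were Arid3a (0.946), Scube2 (0.905) and Tgfbrap1 (0.899), and those of Sox5 were Jam2 (0.939), Slc36a4 (0.911) and Scamp1 (0.889). For Sox12 they were Ring1 (0.962), Mturn (0.949) and Kcnmb4 (0.947), and for Sox3 Crls1 (0.96), Ybx3 (0.933) and Clec2l (0.927). Sox21 had the lowest such values, with Rnf217 (0.871), Hnrnpd (0.85) and Ext1 (0.839), and Sox10 had Akap8l (0.915), Adck5 (0.879) and Tapbp (0.876). These are the highest of 10170 values for each Sox gene, and such a choice over 10 samples gives high r for unrelated genes too. No test was made of them, and they do not show co-regulation. The values for Sox10 rest on 4 to 21 counts per sample. The points share libraries, and the samples numbered 5 lie far from the rest for Sox1 and Sox11.

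Among 9 other Sox genes, looked at for comparison, 6 could be tested and 0 passed the adjusted threshold or an unadjusted p of 0.05 (median log2 fold change -0.07). Sox13 (SoxD) had the highest CPM among them, at 88.7 ± 40.1 in control and 72.7 ± 34.9 in cdKO samples (log2 fold change -0.29 ± 0.48, edgeR adjusted p = 0.997). By sample, Sox13 was at 71.0, 143, 91.6, 104 and 34.2 CPM in control and at 85.5, 92.0, 73.0, 100 and 12.9 CPM in cdKO samples. The lowest value of each group thus came from the sample numbered 5. Sox6, the SoxD partner of Sox5, was at 14.1, 8, 16.1, 18.9 and 15.4 CPM in control and 9.08, 11.1, 6.57, 13.5 and 8.85 CPM in cdKO samples. The Sox6 groups overlapped through control 2 alone, and the log2 fold change was -0.56 ± 0.31 (unadjusted p = 0.0943, edgeR adjusted p = 0.945).

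Genes of the programmes in which Sox factors work did not pass the adjusted threshold in any list (lowest edgeR adjusted p = 0.939). Over all genes tested, 4.99% had an unadjusted p under 0.05. Of 19 tested SoxB1 partner and neural progenitor genes, 0 had an unadjusted p under 0.05, and their median log2 fold change was -0.15. Hes5, a Notch target of progenitors, was at 1020 ± 304 CPM in cdKO samples, and the filament gene Vim at 580 ± 90.6 CPM in control and 685 ± 232 CPM in cdKO samples. Of 12 cycling cell genes 0 had an unadjusted p under 0.05 (median -0.22), with Rrm2 at 1020 ± 557 and 643 ± 297 CPM. Among 18 neuronal genes (median 0.20), Gap43, a growth cone gene, was higher in cdKO samples at an unadjusted p of 0.045 (log2 fold change 1.09), and Snap25, a synaptic gene, was lower at 0.0346 (-0.85). Among 11 motor neuron genes (median -0.01), Isl1 was at 225 ± 80.6 CPM in control and 127 ± 32.9 CPM in cdKO samples, with a log2 fold change of -0.83 ± 0.31 (unadjusted p = 0.018, edgeR adjusted p = 0.939), and no other member had an unadjusted p under 0.05. Of 5 V3 interneuron genes (median 0.34) 0 had one.

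Markers of other cells that express Sox genes were summed as well. For comparison, an unadjusted p under 0.05 was found for 4.17% of all genes with higher and 0.824% with lower values in cdKO samples. Neural crest and Schwann cell precursor genes summed to 243 to 756 CPM in control and 289 to 1020 CPM in cdKO samples (median log2 fold change -0.16), mostly from Fabp7 and Ednrb, which neural progenitors also express, and 0 of 6 tested had an unadjusted p under 0.05. Of 6 sensory neuron genes 0 had one either (55.3 to 123 and 61.4 to 176 CPM, median log2 fold change 1.0). Chondrogenic genes, a programme driven by Sox9, Sox5 and Sox6, summed to 36.5 to 119 and 29.3 to 109 CPM (median -0.26), of which Col2a1 gave most (58.4 ± 29.2 and 59.8 ± 27.6 CPM), and 1 of 4 tested, Col11a2, had a lower value in cdKO samples (log2 fold change -1.90, unadjusted p = 0.0171). Mesenchyme and somite genes summed to 12.7 to 26.1 and 15.6 to 30 CPM (median 0.54), and Twist1 (unadjusted p = 0.0123) and Col1a2 (0.0475) of 11 tested were higher in cdKO samples. Erythroid genes summed to 0.902 to 19.1 and 2.83 to 66.2 CPM (median 2.08), with Hba-a1 (unadjusted p = 0.0434) and Hba-a2 (0.0497) of 6 tested higher in cdKO samples. Endothelial genes (1.66 to 3.66 and 1.75 to 3.45 CPM, 5 tested, median 0.19) and macrophage genes (3.14 to 5.18 and 3.33 to 7.10 CPM, 1 tested, log2 fold change 0.02) had 0 such members. Without cdKO 5 the unadjusted edgeR p stayed under 0.05 for Isl1 (0.0197), Col1a2 (0.0299) and Col11a2 (0.037), and rose to 0.0528 for Snap25, 0.0711 for Twist1, 0.27 for Gap43, 0.303 for Hba-a1 and 0.293 for Hba-a2. In the fit without cdKO 5, 2.34% of all genes had an unadjusted p under 0.05. The part of these other cells in the Sox levels was not tested.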

How the data were processed

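Samples of sorted YFP-positive cells, 5 control and 5 cdKO, were grouped by their titles. The values used are the raw counts per exon bin that the authors deposited. The submitters' processing notes name bcl2fastq 2.17, Trimmomatic 0.36, STAR 2.5.2b, Subread 1.5.2, DESeq2 and GRCm38, whereas the annotation release and strand setting are not given in the sources used here. In all 16 intervals that the files list once per strand, the counts of both strands were equal.

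Of 49644 gene identifiers, 49384 were found in GENCODE M21. Its exons were used to give the 425461 bins to genes, with 3987 bins (1.24% of counts) left out where several genes shared them. A read is counted on each bin it overlaps, so sums over bins grow with the number of bins a gene has. After filterByExpr (minimum count 10) and TMM scaling, 17830 genes were tested with edgeR 4.0.16 (quasi-likelihood test, R 4.3.3), with Benjamini-Hochberg adjustment and a threshold of 0.05. CPM values were computed from the deposited counts. Exact permutation tests used 252 arrangements of the 10 samples. The floor of 3 counts corresponds to 0.0288 to 0.0591 CPM, and counting error only is covered by it.

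Alternatives were DESeq2 1.42.0, limma 3.58.1 (voom, with and without sample weights), other scalings, filters and bins, a block on replicate number, and the omission of each sample in turn. Leaving out both samples numbered 5, and the highest bin without cdKO 5, were added after seeing the data. The fits were tested on simulated data. There edgeR called 0 of 50 genes raised 2-fold, 1 of 49 genes set to 0.5-fold and 29 of 50 genes raised 4-fold. DESeq2 called 7 of 50 genes raised 2-fold. Among unchanged genes, edgeR called 3 of 17258 and DESeq2 41 of 17630. A lack of calls in edgeR thus says little about changes near 2-fold. The members and gene lists were chosen with earlier results of these data known. The genes named are the 10 Sox genes, Oc1, from each list the 2 of highest CPM and up to 4 with the smallest unadjusted p under 0.05, and the 3 most alike in pattern to each Sox gene; others are marked in the text as picked for description or are named by their low counts. The list of changed genes published with the study was not used.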

Additional observations from a re-analysis of the deposited data

Results flagged for a closer look

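The spread of each Sox gene's level and of 7 ratios or shares was screened in each group of 5 samples for a sample far from the rest (Dixon's criterion, 0.71 for 5 samples). Of 34 groups screened, 8 held such a sample, where chance would give about 1.7 if the groups were independent. They are not, since all come from the same 10 samples and several of the ratios measure the same 5′ to 3′ coverage. The count is therefore a description and not a test. In 7 of the 8 cases the sample carried the replicate number 5.

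Sox1 was at 6.61 CPM in control 5, against 1.86 to 2.87 in the other control samples, and at 7.61 CPM in cdKO 5, against 1.14 to 2.44 in the other cdKO samples. Sox11 was at 434 CPM in cdKO 5, against 36 to 70.3 in the others.

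The share of Sox4 counts on the 3′ stretch shared with Gm26735 was 39.4% in control 5, against 15.6 to 19.2% in the other control samples, and 87.3% in cdKO 5, against 13.6 to 20.2%. The per-base ratio of 5′ to 3′ counts in cdKO 5 was 0.0329 for Sox9, against 1.51 to 1.91 in its group, and 0.0502 for Sox12, against 0.942 to 1.23. The sample without the number 5 was control 4, where the ratio of the middle to the last coding exons of Sox5 was 1.21, against 0.478 to 0.667 in the other control samples. In cdKO 5 and control 5 the median share of counts 5′ of the midpoint of genes was also the lowest of all samples, at 36.158% and 50.426%. Its part in these values was not tested.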

How the results depend on the processing

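No Sox gene passed the adjusted threshold under any alternative (lowest adjusted p = 0.443, Sox11 in limma-voom with sample weights). The count of all genes called was 0 in edgeR, 1 with library size only, 19 with the DESeq2 Wald test, 3 with limma-voom, 13 with sample weights, 1 without the filter, 0 to 4 with each sample left out (4 without control 5, 1 without cdKO 5 and 0 otherwise), 4 without both samples numbered 5, and 1 with the highest bin and no cdKO 5. None of the genes in these counts was a Sox member. Genes with an unadjusted p under 0.05 numbered 890 in edgeR, 1426 in DESeq2, 321 in limma-voom, 1529 with weights, 2117 without the filter, 433 without both samples numbered 5, 531 with the highest bin and no cdKO 5, and 311 to 1352 with each sample left out (311 without control 4, 420 without control 3, 425 without cdKO 5 and 1352 without cdKO 4). Of the Sox genes, 3 had an unadjusted p under 0.05 with sample weights (Sox11, Sox9 at -0.52 and Sox4 at -0.43) and 1 (Sox11) without cdKO 5, without both samples numbered 5, or with the highest bin and no cdKO 5. In these 4 fits, in the same order, 8.58%, 2.34%, 2.42% and 3.18% of all genes had such a p.

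The direction turned for Sox4 with DESeq2 size factors (0.03), the DESeq2 Wald test (0.0041) and at least 10 counts in every sample (0.01), and for Sox3 with library size only (-0.11), the highest bin (-0.11), no samples numbered 5 (-0.09) and the highest bin without cdKO 5 (-0.22). It turned for Sox5 with the highest bin (0.07). Sox11 was at -0.29 with library size only, -0.45 with limma-voom, -0.95 with sample weights, -0.20 with the highest bin, -0.89 without both samples numbered 5 and -1.13 with the highest bin and no cdKO 5. With each sample left out, log2 fold changes ranged from -0.71 to 0.43 for Sox1, -0.29 to 0.0017 for Sox2, -0.24 to 0.27 for Sox3, -0.31 to 0.11 for Sox4, -0.28 to 0.02 for Sox5 and -1.13 to 0.33 for Sox11, and kept their sign for Sox9 (-0.44 to -0.14), Sox12 (0.41 to 0.93) and Sox21 (-0.32 to -0.03). Over all alternatives Sox9 ranged from -0.52 to -0.14 and Sox12 from 0.21 (no samples numbered 5) to 0.93, with 0.30 for the highest bin without cdKO 5. Without both samples numbered 5, Sox9 was at -0.48 and Sox4 at -0.41. With library size only, Sox9 was at -0.48 and Sox4 at -0.22. The cause was not tested. The median over all genes moved from -0.02 to -0.15 with library size only, where 0 pairs of Sox genes were correlated past the threshold in place of 2.

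Samples with the same replicate number did not deviate together throughout (correlations 0.079, -0.257, 0.114, 0.321 and 0.283 for numbers 1 to 5). The mean correlation between samples of differing numbers was -0.015. The main fit did not take the number as a pairing, and whether samples of the same number share a batch was not tested. With the replicate block, Sox11 was at -0.45, 0 genes were called and 462 had an unadjusted p under 0.05. Sox10 passed the filter or was fitted in 8 alternatives, from 0.51 without control 4 to 0.86 without cdKO 3 (lowest unadjusted p = 0.146).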
